A study of Mus musculus with 11 samples.

Results

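The genes described are 9 that set, reverse, carry or respond to the phosphorylation of eIF2α, the alpha subunit of translation initiation factor eIF2. They are the 4 eIF2α kinases (*Eif2ak1*, *Eif2ak2*, *Eif2ak3* and *Eif2ak4*), the kinase substrate *Eif2s1*, the phosphatase subunits *Ppp1r15a* and *Ppp1r15b*, the eIF2B subunit *Eif2b5*, and *Qrich1*. They are listed by name, with no threshold on a measured value, and are 9 of the 18667 genes in the table. All 9 were among the 16169 genes tested, those whose mean reached 0.1 FPKM, the number of fragments per kilobase of transcript scaled to library size. RNA was measured in 5 Atf6+/+ and 6 Atf6-/- whole cochleae, 1 library per cochlea, from mice on a C57BL/6J background and 2 months of age. The Atf6+/+ mice were littermates of the Atf6-/- mice. The mutant allele has an early stop in exon 4 of *Atf6* and is present in all cells, so that no ATF6 protein is made. C57BL/6J mice carry the ahl allele of *Cdh23*, which is linked to hearing loss with age, and the labels do not give the sex of each mouse. The question was whether RNA of this control point differed in cochleae without ATF6.

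eIF2 carries the initiator methionyl-tRNA to the ribosome, and eIF2B recharges it with GTP after each round. When a kinase phosphorylates the alpha subunit, eIF2 binds and blocks eIF2B, so that translation of most mRNAs falls while translation of a few, *Atf4* among them, rises. The 4 kinases answer different stresses, and *Ppp1r15a* or *Ppp1r15b* guides protein phosphatase 1 to eIF2α to remove the phosphate. The kinase PERK, encoded by *Eif2ak3*, and ATF6 are both sensors of the endoplasmic reticulum and 2 of the arms of the unfolded protein response. Kinase activity and eIF2α phosphorylation are set on the proteins, and RNA levels do not measure them.

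Promoter windows are shown because ATF6 is a transcription factor whose known site, the ER stress response element (ERSE, CCAAT and CCACG with 9 bases of any kind between them), can be read from sequence. RefSeq windows of 300 bases around gene starts (GRCm38.p6, 250 bases before to 50 after) were at hand for 8 of the 9 genes, all but *Ppp1r15b*. Both strands were searched. ERSE was in 0.119% of all 32851 windows and in none of the 8 genes. The same 8 genes held no ERSE-II (ATTGG and CCACG with 1 base between them, in 0.0365% of all windows), no UPR element TGACGTGG (0.676%) and no ATF4 site TGATGNAA (3.97%). CCAAT, which is also the first part of ERSE, was in 37.4% of all windows and in *Eif2ak1*, *Eif2ak3*, *Eif2b5* and *Qrich1*. CCACG, which is also the last part of ERSE and of ERSE-II, was in 32.8% of all windows and in *Eif2ak1*, *Ppp1r15a*, *Eif2b5* and *Qrich1*. The *Eif2ak3* window held 6 copies of CCAAT, between 20 and 237 bases upstream of the start, and 26 of all windows (0.0791%) held 6 or more. Among genes that act on the kinases, *Dnajc3* and *Hspa5* each held 1 ERSE, 105 and 65 bases upstream. The first window is shown for its CCAAT copies, the next 2 for their ERSE, and *Asns*, an ATF4 target, for its ATF4 site. The motifs and windows were chosen after the values were seen. Each window runs 5′ to 3′ on the strand of its gene, and capitals mark CCAAT or its reverse complement ATTGG in *Eif2ak3*, ERSE in *Dnajc3* and *Hspa5*, and the ATF4 site in *Asns*.
*Eif2ak3*, chr6:70844265-70844564, plus strand: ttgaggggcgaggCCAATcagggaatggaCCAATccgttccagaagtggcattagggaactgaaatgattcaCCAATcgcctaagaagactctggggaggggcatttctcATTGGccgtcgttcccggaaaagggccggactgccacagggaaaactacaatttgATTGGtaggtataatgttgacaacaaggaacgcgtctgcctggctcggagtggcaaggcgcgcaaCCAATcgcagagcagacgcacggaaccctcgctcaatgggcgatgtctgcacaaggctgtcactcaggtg
*Dnajc3*, chr14:118937682-118937981, plus strand: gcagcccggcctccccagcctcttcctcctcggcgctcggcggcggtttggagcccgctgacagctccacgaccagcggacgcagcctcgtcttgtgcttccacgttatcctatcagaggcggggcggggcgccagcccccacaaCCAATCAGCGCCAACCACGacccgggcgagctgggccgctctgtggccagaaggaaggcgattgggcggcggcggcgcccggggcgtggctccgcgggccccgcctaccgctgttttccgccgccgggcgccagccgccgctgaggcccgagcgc
*Hspa5*, chr2:34771840-34772139, plus strand: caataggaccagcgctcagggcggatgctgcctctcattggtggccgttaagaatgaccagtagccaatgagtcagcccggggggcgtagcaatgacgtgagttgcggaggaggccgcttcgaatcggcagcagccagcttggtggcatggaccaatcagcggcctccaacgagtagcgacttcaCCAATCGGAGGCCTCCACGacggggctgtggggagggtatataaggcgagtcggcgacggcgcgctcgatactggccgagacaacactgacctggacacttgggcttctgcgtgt
*Asns*, chr6:7693160-7693459, minus strand: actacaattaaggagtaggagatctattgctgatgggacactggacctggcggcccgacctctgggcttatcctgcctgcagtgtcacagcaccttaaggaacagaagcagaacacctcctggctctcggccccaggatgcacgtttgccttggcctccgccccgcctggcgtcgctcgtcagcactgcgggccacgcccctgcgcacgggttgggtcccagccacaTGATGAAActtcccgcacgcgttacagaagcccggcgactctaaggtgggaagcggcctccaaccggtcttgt

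The FPKM of a library summed to between 474616 and 537926 in Atf6+/+ and between 462005 and 502419 in Atf6-/- cochleae, and read depth beyond the stated 30 M reads is unknown, so no counting error is given. Across genes, pairs of libraries correlated with r between 0.963 and 0.990. *Atf6* itself lay between 8.25 and 10.56 FPKM in Atf6+/+ and between 3.83 and 4.59 FPKM in Atf6-/- libraries (log2 fold change -1.13, limma adjusted p = 5.17e-05). Markers of the cochlea were present: the 8 spiral ganglion neuron genes summed to between 4912 and 5917 FPKM in all libraries, and the 8 hair cell genes to between 38.0 and 121.0 FPKM in Atf6+/+ and between 68.0 and 150.03 FPKM in Atf6-/- cochleae. At the unadjusted p, 2 of 8 hair cell, 1 of 8 supporting cell and 1 of 8 stria vascularis genes were higher in Atf6-/- and none was lower. Their median log2 fold changes were 0.29, 0.24 and 0.17, with 8, 7 and 8 values above 0. No spiral ganglion neuron, bone or macrophage gene was called, and their medians were -0.054, -0.30 and -0.17, with 7, 8 and 7 of 8 values below 0. Libraries also differed in blood and marrow genes. The 12 erythroid genes summed to between 4841 and 46411 FPKM in Atf6+/+ and between 2875 and 9392 FPKM in Atf6-/- libraries, and 8 of 12 erythroid, 6 of 10 neutrophil and 3 of 9 B cell genes were lower in Atf6-/- at an unadjusted p of at most 0.05. Two-sided tests were made with limma on log2(FPKM + 0.1), and a gene was called at that p with an absolute log2 fold change above 0.05, or by an adjusted p under 0.05. In such bulk samples, fewer cells of a type and less RNA per cell cannot be told apart.

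None of the 9 genes was higher or lower in Atf6-/- cochleae by either rule of this limma fit, and for all 9 the groups overlapped. The background was 9.85% of all genes called at the unadjusted p (4.48% higher and 5.37% lower), 0.068% at the adjusted p, and 1.25% whose groups did not overlap. The log2 fold changes lay between -0.083 and 0.10, with a median of 0.032 beside -0.013 for all genes tested. *Eif2s1* was the 1 gene with a value below 0. The 95% confidence intervals reached 0.084 to 0.21 log2 units to either side. In 7 of the 9 genes the spread within groups was below 0.14 log2 units, the median over the 13611 genes whose mean reached 1 FPKM. When a bone marrow score (from erythroid, neutrophil and B cell genes) was fitted as a covariate, 0 of 9 genes were called. With a Y-linked score as a covariate, or without Atf6+/+ replicate 2 or Atf6-/- replicate 3, 1 of 9 was called at the unadjusted p, *Qrich1* in each case.

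**Figure D1:**
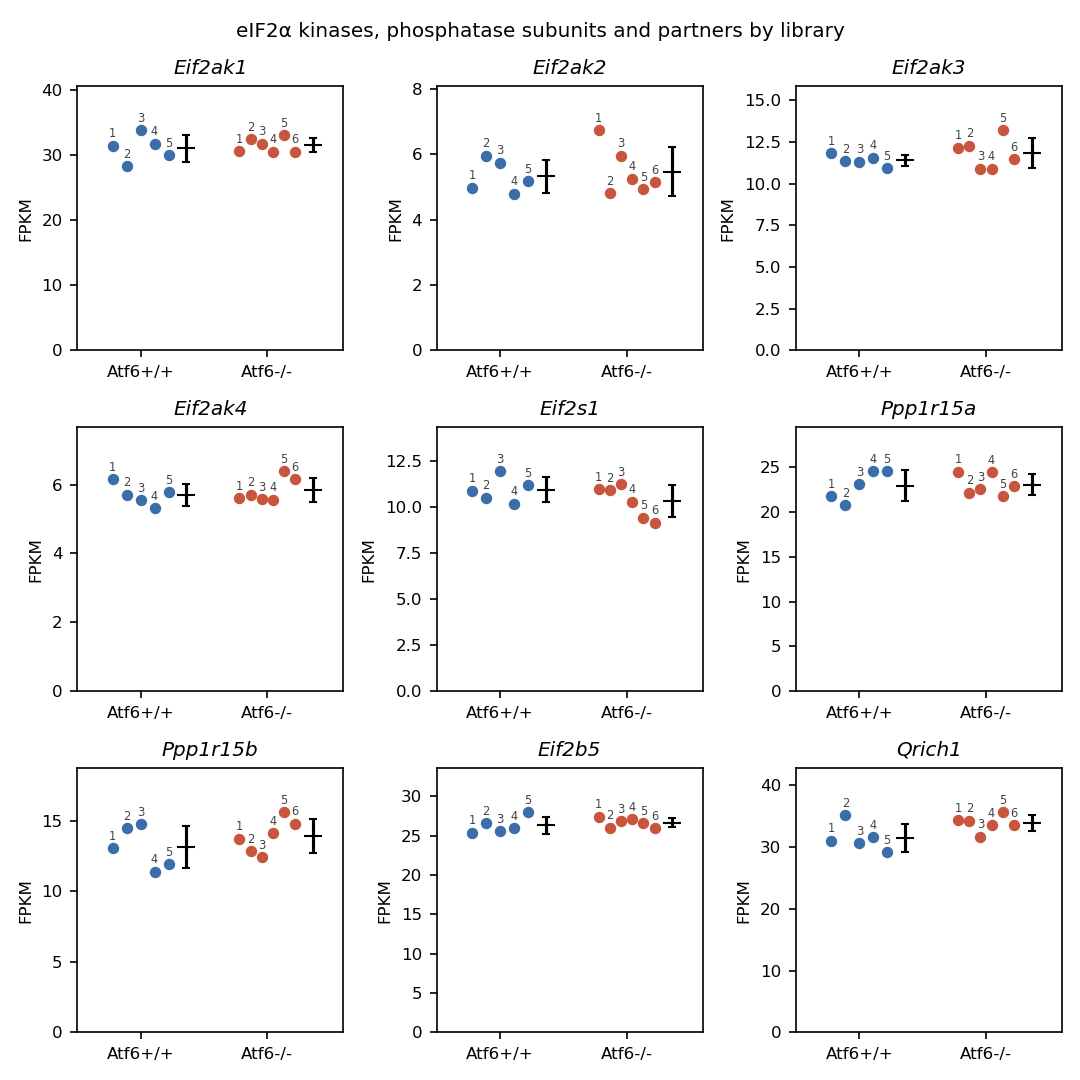
FPKM (vertical axes, each from 0) of the 9 genes in each library, with Atf6+/+ in blue (n = 5) and Atf6-/- in red (n = 6). Numbers are replicates, and black bars are the mean ± SD. The groups overlapped in every panel, and values ran from 4.79 FPKM in *Eif2ak2* to 35.64 FPKM in *Qrich1*.

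*Eif2ak3* encodes PERK, the kinase in the endoplasmic reticulum membrane that responds to unfolded protein. Its FPKM was 11.82, 11.35, 11.32, 11.56 and 10.93 in the 5 Atf6+/+ libraries and 12.17, 12.29, 10.91, 10.91, 13.22 and 11.47 in the 6 Atf6-/- libraries. The Atf6-/- libraries spanned the whole Atf6+/+ range, with 3 libraries above it and a pair just under it. The log2 fold change was 0.050 (SE 0.058, limma adjusted p = 0.780), and the fold of 1.04 had a 95% confidence interval of 0.949 to 1.13. The window printed above is that of this gene, with CCAAT copies and no ERSE.

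*Eif2ak1* encodes HRI, which responds to low heme and to mitochondrial stress and is known for its high level in red cell precursors. Its FPKM was 31.44, 28.24, 33.82, 31.74 and 29.95 in Atf6+/+ and 30.60, 32.39, 31.75, 30.50, 32.99 and 30.52 in Atf6-/- cochleae. The lowest and the highest library were both Atf6+/+, replicates 2 and 3. Between the groups, its log2 fold change was 0.021 (SE 0.049, limma adjusted p = 0.904), and the fold of 1.01 had an interval of 0.942 to 1.09. Of 12 erythroid genes, 8 were called as lower in Atf6-/- at the unadjusted p and 0 at the adjusted p, and the groups of each overlapped. The mean log2 level of the 12 was 5.29, 3.90, 5.77, 4.77 and 5.42 in Atf6+/+ and 2.39, 3.80, 3.72, 3.80, 4.12 and 4.61 in Atf6-/- cochleae. Replicate 5 of Atf6+/+ had the highest summed erythroid level of all (46411 FPKM) and the next to lowest *Eif2ak1* of its group. Atf6+/+ replicate 3 had the highest erythroid mean log2 level and the highest *Eif2ak1*. Atf6+/+ replicate 2 had the lowest of its group in both (3.90 and 28.24 FPKM). Whether *Eif2ak1* follows the erythroid level was not tested. In Atf6-/- replicate 1, with the lowest erythroid mean of all, *Eif2ak1* was 30.60 FPKM, inside the Atf6+/+ range. Fitted beside the bone marrow score, *Eif2ak1* had a log2 fold change of 0.084, against 0.021 without the score, and was not called in either fit.

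*Eif2ak4* encodes GCN2, which responds to amino acid shortage through uncharged tRNA and stalled ribosomes. Its FPKM was 6.16, 5.71, 5.54, 5.31 and 5.78 in Atf6+/+ and 5.61, 5.71, 5.57, 5.56, 6.39 and 6.16 in Atf6-/- cochleae. Only Atf6-/- replicate 5 lay above the Atf6+/+ range. Its log2 fold change was 0.032 (SE 0.064, limma adjusted p = 0.885), and the fold of 1.02 had an interval of 0.929 to 1.13.

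*Eif2ak2* encodes PKR, which binds double-stranded RNA and is itself induced by interferon. Its FPKM was 4.98, 5.96, 5.74, 4.79 and 5.18 in Atf6+/+ and 6.74, 4.80, 5.96, 5.25, 4.93 and 5.14 in Atf6-/- cochleae. Replicate 1 of Atf6-/- was above every other library, and the other 5 lay inside the Atf6+/+ range. The log2 fold change was 0.032 (SE 0.098, limma adjusted p = 0.933), and the fold of 1.02 had the widest interval of the 9, 0.882 to 1.18.

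Of 17 interferon-stimulated genes tested, 0 were called as higher and 1 as lower, and their median log2 fold change was 0.030. The lower gene was *Rsad2*, which encodes the antiviral enzyme viperin (log2 fold change -0.66, limma adjusted p = 0.444). It was not called without Atf6+/+ replicate 3 or 5 or beside the bone marrow score, where 0 of the 17 were lower. The mean log2 level of the 17 genes was 2.53, 2.62, 2.68, 2.85 and 2.74 in Atf6+/+ and 3.14, 2.70, 3.15, 2.74, 2.08 and 2.45 in Atf6-/- cochleae. The Atf6-/- libraries 1 and 3 had the highest means of all and the highest *Eif2ak2* of their group. Atf6+/+ replicate 4 had the next highest mean but the lowest *Eif2ak2* of all, 4.79 FPKM, so the libraries do not follow a single order.

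**Figure D2:**
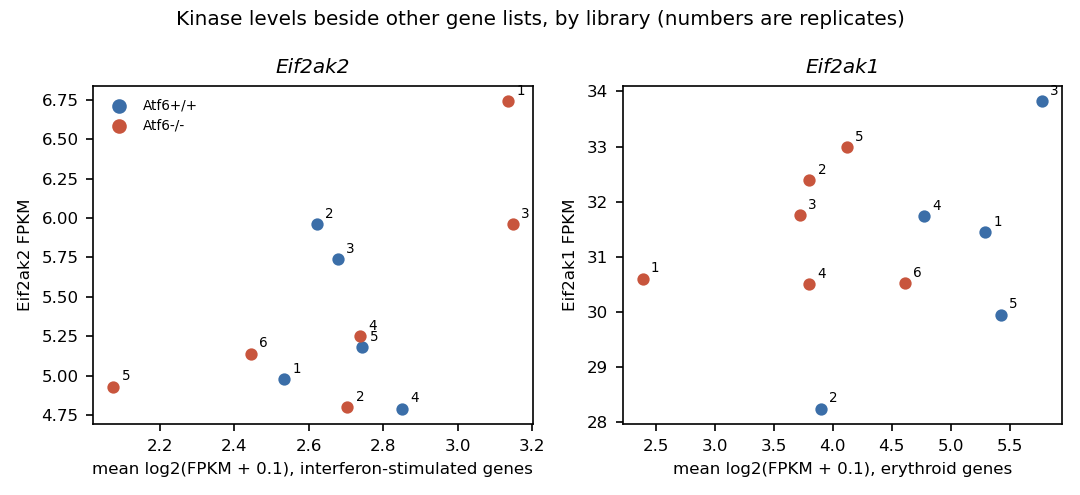
*Eif2ak2* FPKM against the mean log2(FPKM + 0.1) of 17 interferon-stimulated genes (left) and *Eif2ak1* FPKM against that of 12 erythroid genes (right), 1 point per library, Atf6+/+ blue and Atf6-/- red, with replicate numbers. The vertical axes do not start at 0. The Atf6-/- libraries 1 and 3 lie at the right of the left panel with 6.74 and 5.96 FPKM, and in the right panel the Atf6+/+ libraries lie between 3.90 and 5.77 on the erythroid axis and the Atf6-/- libraries between 2.39 and 4.61.

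Summed over the 4 kinases, the Atf6+/+ libraries reached 53.5 ± 2.07 FPKM (SD, n = 5) and the Atf6-/- libraries 54.6 ± 1.83 FPKM (SD, n = 6). *Eif2ak1* made up between 55.1% and 59.9% of this sum in all libraries, and *Eif2ak3* between 20.1% and 23.0%. *Eif2ak4* made up between 9.82% and 11.6%, and *Eif2ak2* between 8.57% and 12.2%. In each of the 11 libraries, the heme-responsive kinase thus gave the largest part of kinase RNA and PERK the next. FPKM is per transcript length, which lets levels of different genes be set side by side.

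*Eif2s1* encodes the eIF2α subunit that all 4 kinases phosphorylate. Its FPKM was 10.87, 10.50, 11.94, 10.18 and 11.16 in Atf6+/+ and 10.95, 10.91, 11.24, 10.29, 9.42 and 9.15 in Atf6-/- cochleae. Replicates 5 and 6 of Atf6-/- were below every Atf6+/+ library, and the other 4 were inside their range. Between the groups, its log2 fold change was -0.083 (SE 0.068, limma adjusted p = 0.683), and the fold of 0.944 had an interval of 0.852 to 1.05.

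*Ppp1r15a* encodes GADD34, the stress-induced phosphatase subunit and a target of ATF4 signaling. Its FPKM was 21.74, 20.69, 23.03, 24.49 and 24.51 in Atf6+/+ and 24.44, 22.10, 22.49, 24.40, 21.72 and 22.81 in Atf6-/- cochleae. Every Atf6-/- library lay inside the Atf6+/+ range. Its log2 fold change was 0.0080 (SE 0.056, limma adjusted p = 0.972), the closest to 0 among the 9, and the fold of 1.01 had an interval of 0.924 to 1.09.

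*Ppp1r15b* encodes CReP, the phosphatase subunit that is present without stress. Its FPKM was 13.04, 14.48, 14.72, 11.38 and 11.92 in Atf6+/+ and 13.71, 12.84, 12.42, 14.12, 15.60 and 14.79 in Atf6-/- cochleae. Replicates 5 and 6 of Atf6-/- were above every Atf6+/+ library. The log2 fold change was 0.088 (SE 0.082, limma adjusted p = 0.722), and the fold of 1.06 had an interval of 0.94 to 1.2. *Ppp1r15a* was above *Ppp1r15b* in each library, and their ratio was 1.77 ± 0.315 (SD, n = 5) in Atf6+/+ and 1.66 ± 0.162 (SD, n = 6) in Atf6-/- cochleae.

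*Eif2b5* encodes the epsilon subunit of eIF2B, which carries its exchange activity and is blocked by phosphorylated eIF2. Its FPKM was 25.40, 26.60, 25.54, 25.97 and 28.00 in Atf6+/+ and 27.42, 26.03, 26.85, 27.09, 26.58 and 25.95 in Atf6-/- cochleae. All 6 Atf6-/- libraries lay inside the Atf6+/+ range. Its log2 fold change was 0.020 (SE 0.039, limma adjusted p = 0.885), and the fold of 1.01 had the narrowest interval of the 9, 0.956 to 1.07.

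*Qrich1* encodes a transcription factor that is translated when eIF2α is phosphorylated and acts downstream of PERK. Its FPKM was 31.03, 35.18, 30.62, 31.60 and 29.11 in Atf6+/+ and 34.31, 34.24, 31.67, 33.48, 35.64 and 33.53 in Atf6-/- cochleae. All 6 Atf6-/- libraries were above 4 of the 5 Atf6+/+ libraries, and Atf6+/+ replicate 2 was above all Atf6-/- libraries but 1. The log2 fold change of 0.10 (SE 0.051, limma adjusted p = 0.515) was the largest in size of the 9, and the fold of 1.07 had an interval of 0.995 to 1.16. The exact two-sided permutation test over 462 splits gave p = 0.0649. *Qrich1* was called at the unadjusted p without Atf6+/+ replicate 2 (log2 fold change 0.14), without Atf6-/- replicate 3 (0.12) and with a Y-linked score as a covariate (0.12). It was not called by an adjusted p in any of these. The study, by its own test (DESeq2), reported *Qrich1* as significantly higher in Atf6-/- cochleae.

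**Figure D3:**
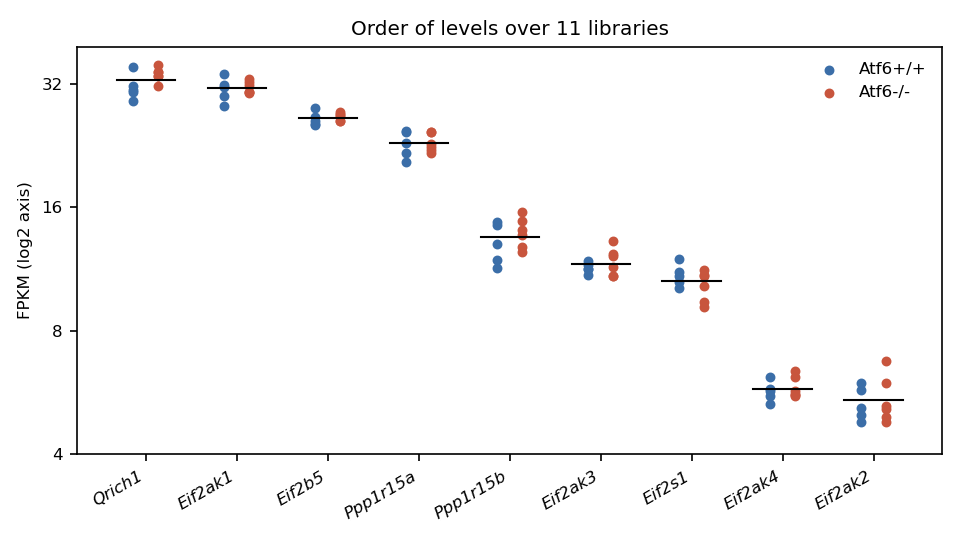
FPKM (log2 axis) of the 9 genes in order of their mean log2 level, 1 point per library. Atf6+/+ is blue (n = 5) and Atf6-/- red (n = 6), and black lines are at the mean FPKM of the 11 libraries. *Ppp1r15a* lay above *Ppp1r15b* in every library, and a further step down separated *Eif2s1* from *Eif2ak4*.

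In order of level, the genes were *Qrich1*, *Eif2ak1*, *Eif2b5*, *Ppp1r15a*, *Ppp1r15b*, *Eif2ak3*, *Eif2s1*, *Eif2ak4* and *Eif2ak2*. Neighbours were compared within each library by an exact two-sided sign-flip permutation test, with adjustment over the 8 pairs. The order and the test use the same libraries, so the direction of each mean difference was set beforehand. By this test 6 of the 8 pairs differed beyond the spread between libraries, which does not measure any bias of FPKM between genes. *Qrich1* was above *Eif2ak1* in 6 of 11 libraries, by a ratio of 1.05 (exact test, adjusted p = 0.125), and *Eif2ak4* above *Eif2ak2* in 7 of 11, by 1.07 (exact test, adjusted p = 0.127). These pairs did not differ beyond their spread over all libraries, but leaving out 1 library turned each call. The adjusted p of the exact test was 0.0357 for the former pair without Atf6+/+ replicate 3 and 0.0402 for the latter without Atf6-/- replicate 1. *Qrich1* was above *Eif2ak1* in 1 of 5 Atf6+/+ and 5 of 6 Atf6-/- libraries, and that split was not tested. The largest steps were from *Eif2s1* to *Eif2ak4* (ratio 1.82) and from *Ppp1r15a* to *Ppp1r15b* (1.69), each in 11 of 11 libraries (exact test, adjusted p = 0.00195). PERK RNA was above that of its substrate *Eif2s1* in 8 of 11 libraries, by a ratio of 1.10 (exact test, adjusted p = 0.0182). Within genotypes this ratio was 1.04 in Atf6+/+ (higher in 3 of 5 libraries, exact p = 0.25) and 1.14 in Atf6-/- (5 of 6, exact p = 0.0625), where 5 libraries cannot give a p below 0.0625 and 6 libraries none below 0.03125. Neither genotype passed alone, and the difference between them was not tested. All 8 pairs had the same direction of their mean difference within each genotype, though not in each library.

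Of 11 genes of the other eIF2 and eIF2B subunits and factors that act beside them, 0 were called, with a median log2 fold change of 0.0046. *Eif2s2*, the beta subunit of eIF2, had a log2 fold change of -0.023. The other eIF2B subunits *Eif2b1*, *Eif2b2*, *Eif2b3* and *Eif2b4* had 0.0046, 0.023, 0.030 and -0.022. *Eif5*, which triggers GTP hydrolysis on eIF2, had 0.063, and *Cdc123*, which helps to assemble eIF2, had -0.064. *Eif2a* and *Eif2d*, alternative initiation factors, had -0.072 and 0.059.

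The gamma subunit of eIF2 has an X-linked and a Y-linked gene. *Eif2s3y* was 7.45, 17.97, 19.37, 17.08 and 0.17 FPKM in Atf6+/+ and 0.22, 0.24, 0.27, 16.01, 14.86 and 17.31 FPKM in Atf6-/- cochleae. *Eif2s3x* was 46.71, 34.94, 33.23, 32.26 and 47.84 FPKM in Atf6+/+ and 50.87, 49.90, 49.99, 32.83, 33.63 and 31.77 FPKM in Atf6-/- cochleae. In each genotype, libraries with *Eif2s3y* near 0 were among those with the higher *Eif2s3x*. These were Atf6+/+ replicate 5 and Atf6-/- replicates 1 to 3, whose 3 other Y-linked genes summed to 0.02 to 0.09 FPKM. By these levels they come from females, so the mix of sexes differed between the genotypes. Atf6+/+ replicate 1 stood apart, with *Eif2s3y* between the 2 levels and *Eif2s3x* of 46.71 FPKM. Its 3 other Y-linked genes summed to 8.14 FPKM, against 16.4 to 21.6 FPKM in the other libraries with *Eif2s3y* above 14 FPKM. Whether this library holds RNA of a single mouse was not tested. Without it, which leaves 4 Atf6+/+ libraries, 0 of the 9 genes were called.

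The sum of *Eif2s3x* and *Eif2s3y* varied less, from 48.0 to 54.2 FPKM in Atf6+/+ and from 48.5 to 51.1 FPKM in Atf6-/- cochleae. It was 4.30 to 5.36 times the level of *Eif2s1* over all libraries. *Eif2s2* was 2.69 to 2.98 times that of *Eif2s1*. With the gamma genes summed, the alpha subunit thus had the lowest RNA level of the eIF2 subunits in each library, per transcript length.

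**Figure D4:**
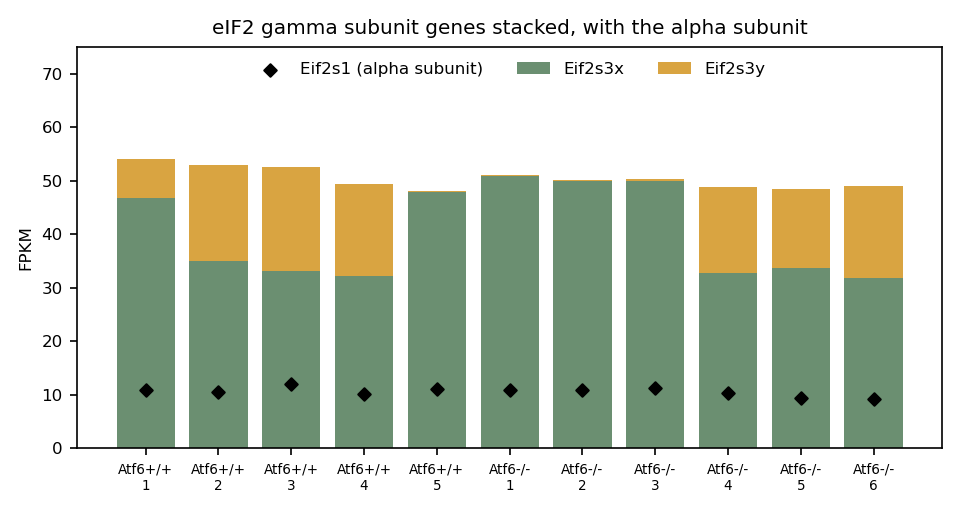
FPKM of the gamma subunit genes *Eif2s3x* (green) and *Eif2s3y* (orange), stacked in bars from 0, and of *Eif2s1* (black diamonds) in each of the 5 Atf6+/+ and 6 Atf6-/- libraries. The bars end between 48.0 and 54.2 FPKM although *Eif2s3y* ran from 0.17 to 19.37 FPKM, and *Eif2s1* stayed between 9.15 and 11.94 FPKM.

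Of 13 genes that act on the kinases or the phosphatase, 0 were called, with a median log2 fold change of -0.048. Among inhibitors of the kinases, *Dnajc3* (p58IPK) had 0.098 and *Hspa5* (BiP, which holds PERK inactive) had -0.048. These are the genes with ERSE in the windows printed above. *Nck1*, an adaptor that limits PERK signaling, had -0.12. *Gcn1*, which activates GCN2, had 0.067 and *Impact*, which competes with it, had -0.11. For PKR, the activator *Prkra* had -0.048, the inhibitor *Tarbp2* had -0.050 and *Adar*, which edits double-stranded RNA, had 0.091. *Oma1* and *Dele1*, which relay mitochondrial stress to HRI, had 0.051 and 0.047. The phosphatase 1 catalytic subunits *Ppp1ca*, *Ppp1cb* and *Ppp1cc* had -0.070, -0.0042 and -0.098.

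Single libraries or scaling moved calls in these lists. *Nck1* was called as lower without Atf6+/+ replicate 4 and *Adar* as higher without Atf6+/+ replicate 3. With TPM scaling, under which the median over all genes went from -0.013 to 0.041 and the share of higher genes among those called from 45.5% to 75.2%, *Dele1* was called as higher. *Cdc123* and *Prkra* were called as lower when the bone marrow score was a covariate.

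The ATF4 program, which lies downstream of eIF2α phosphorylation, is given beside its regulators. Of its 29 genes tested, 18 (62.1%) were higher and 0 lower in Atf6-/- cochleae at the unadjusted p, 4 had a limma adjusted p under 0.05, and for 10 the groups did not overlap. The median log2 fold change was 0.24, beside -0.013 for all genes and 0.29 and 0.24 for the hair cell and supporting cell genes. The part of these cell types in the result was not tested. The summed level was 954 to 1095 FPKM in Atf6+/+ and 1139 to 1280 FPKM in Atf6-/- cochleae. *Atf5*, a stress-induced transcription factor, rose by 0.87 on the log2 scale from 37.4 FPKM in Atf6+/+ (limma adjusted p = 0.000441). *Fgf21*, a secreted stress hormone, rose by 3.06 on the log2 scale (limma adjusted p = 0.00923), and *Shmt2*, of mitochondrial serine metabolism, by 0.38 (limma adjusted p = 0.0482). The hormone gene *Adm2* averaged 0.042 FPKM in Atf6+/+, below the 0.1 added, and 0.547 FPKM in Atf6-/- cochleae, and no fold is given. *Phgdh*, of serine synthesis, and *Cars*, a tRNA synthetase, rose at the unadjusted p by 0.48 and 0.36 (limma adjusted p = 0.0851 and 0.0729).

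The transcription factors of the ATF4 program are given here after their values were seen, and differences among them were not tested. *Atf4* itself had a log2 fold change of 0.19, called at the unadjusted p (limma adjusted p = 0.495) but not in 10 of 21 alternatives. *Atf3*, *Cebpb* and *Cebpg* had -0.26, -0.045 and 0.062 and were not called (limma adjusted p = 0.591, 0.947 and 0.761). *Ddit3* (CHOP), which lies upstream of *Ppp1r15a*, had -0.22 and was not called (limma adjusted p = 0.505). It was called as lower when the Y-linked or the bone marrow score was a covariate, and without Atf6+/+ replicate 2 or 3 or Atf6-/- replicate 1, 2 or 4. Without Atf6+/+ replicate 1, *Atf3* was called as lower instead. Beside the bone marrow score, 13 of the 29 genes were higher and 1 was lower, and *Atf4*, *Trib3*, *Psat1*, *Slc3a2* and *Stc2* were not called. Whether the change in the ATF4 genes differed from that in the 9 genes was not tested. *Ppp1r15a*, a known target of both *Atf4* and *Ddit3*, was the gene of the 9 closest to 0.

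**Figure D5:**
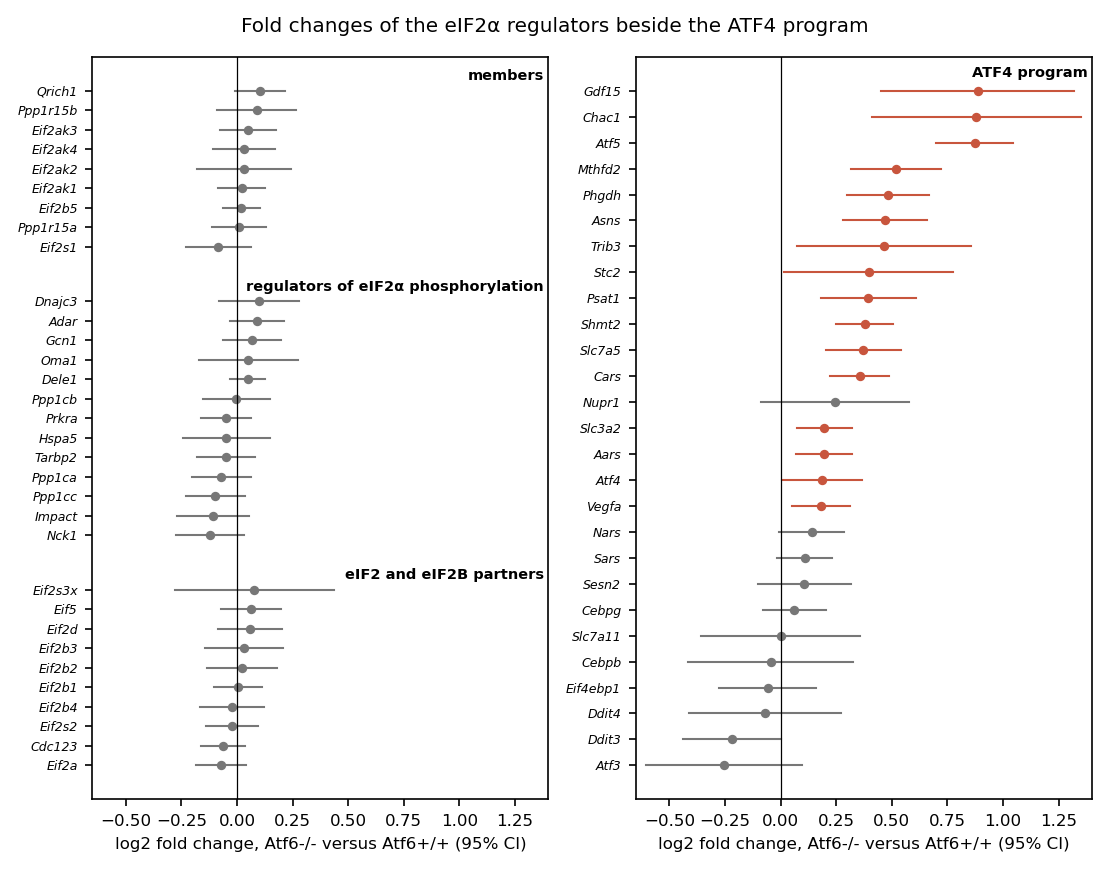
Log2 fold changes of Atf6-/- versus Atf6+/+ cochleae (horizontal axes) with 95% confidence intervals (lines), for the 9 genes, the 13 regulators and 10 of the 11 partners (left) and 27 of 29 ATF4 program genes (right), in red where called at the unadjusted p and in grey where not. *Eif2s3y*, *Fgf21* and *Adm2* are left out for their scale or low level. All points at the left are grey, and 16 of those at the right are red and lie above 0.

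The genes with the most similar pattern over the 11 libraries were found among the other 13610 genes whose mean reached 1 FPKM, by the root-mean-square difference of log2 values, each centred on its own mean. For *Eif2ak3* they were *Nat8l* (difference 0.039) and *Fgf9* (0.043), for *Eif2ak1* *Dnajc11* (0.042) and *Tmcc1* (0.047), and for *Eif2ak4* *Pramel12* (0.035) and *Lsm14a* (0.040). For *Eif2ak2* they were *Rbm41* (0.080) and *Bclaf3* (0.090), and for *Ppp1r15a* *Nxf1* (0.048) and *Stk11* (0.049). The spread of the genes themselves, on the same scale, was 0.068 to 0.15. The nearest genes were picked for the smallest difference, so their values are a description.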

How the data were processed

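RNA was measured in 5 Atf6+/+ and 6 Atf6-/- whole cochleae, grouped by their labels. The authors made stranded mRNA libraries (DNBSEQ, paired-end 100 bp reads, 30 M per sample), aligned them to GRCm39 with HISAT2 2.0.4, estimated expression with RSEM (1.2.12 in the submitters' processing notes, with another release in the study's methods) and tested with DESeq2 1.4.5. The deposited values are FPKM with 2 decimals. Read counts were not used here. The deposited columns of fold changes and p-values were not used. Whether libraries share a mouse is not given in the sources used here, so p-values measure only the spread between these samples, which may be technical.

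Genes whose mean reached 0.1 FPKM were fitted with limma 3.58.1 (R 4.3.3, mean-variance trend, genotype alone) on log2(FPKM + 0.1), with Benjamini-Hochberg adjustment over all genes tested. Fold changes are on that scale, which understates changes of low genes. Genes with an unadjusted limma p no higher than 0.05 and a log2 fold change beyond 0.05 in size were counted as well. This follows the study's cutoffs but not its test: its p came from DESeq2 and it states the size as a fold change, so its calls can differ. Exact permutation tests over 462 splits have a smallest p of 0.00216. In data simulated with independent noise, 200 genes were changed by 1 log2 unit, and the fit recovered 92% of them at the adjusted p. Of its calls, 2.13% were unchanged genes. Changes as small as those of the 9 genes were not simulated. Promoter sequences are RefSeq's (GRCm38.p6), matched by NCBI gene identifier, and no coordinates of GRCm39 are given. The 9 genes and all lists were chosen with earlier results of these data known. Named genes are the 9, *Atf6*, all partners and regulators, up to 6 called genes of smallest p in each direction in the other pathway lists, *Eif2s3y*, and the 2 most similar genes of each kinase and of *Ppp1r15a*. Outside this rule, *Asns* (for its promoter), *Atf3*, *Atf4*, *Cebpb*, *Cebpg*, *Ddit3*, *Trib3*, *Psat1*, *Slc3a2* and *Stc2* were named after their values were seen. List genes with no row under their symbol were not analysed here. The alternatives were other pseudocounts, filters and scalings, a replicate block, robust variance, a bone marrow or Y-linked score as a covariate, and each library left out. Figures were drawn with matplotlib 3.10.9 (Python 3.11.15).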

Additional observations from a re-analysis of the deposited data

Results flagged for a closer look

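Single libraries far from the rest of their group were looked for in 116 groups of values, by Dixon's criterion at its 95% critical value, and 8 were found, where chance gives about 5% of groups. None was in the 9 genes. In Atf6+/+ libraries, replicate 3 had 32.89 FPKM of *Eif2s2* (the others 29.2 to 30.26) and 80.88 FPKM of *Ppp1cc* (63.4 to 67.77). Replicate 4 had 36 FPKM of *Eif2b4* (28.52 to 29.68), 17.56 FPKM of *Tarbp2* (13.88 to 14.94) and 149.07 FPKM of *Atf4* (112.94 to 120.07). Replicate 2 had 13.4 FPKM of *Gcn1* (11.97 to 12.26) and 0.14 FPKM of *Adm2* (0 to 0.04). In Atf6-/- libraries, replicate 3 had 3.99 FPKM of *Rsad2* (1.39 to 2.32).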

How the results depend on the processing

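None of the 9 genes passed an adjusted p under any of 21 alternatives (smallest 0.367), and 176 of 189 fold changes of these genes kept direction and call. The count of the 9 called at the unadjusted p was 1, *Qrich1*, with the Y-linked score (log2 fold change 0.12), and 0 to 1 with a library left out. Directions turned for *Eif2ak2* and *Eif2b5* with the bone marrow score (-0.072 and -0.016) and for *Ppp1r15a* with the Y-linked score (-0.0033). TPM scaling raised all 9 values, as it did the median of all genes (to 0.041), and called none of the 9. *Eif2ak1*, *Eif2ak2*, *Eif2ak3* and *Eif2ak4* then had 0.078, 0.088, 0.11 and 0.089, and *Eif2s1* had -0.027. *Ppp1r15a*, *Ppp1r15b*, *Eif2b5* and *Qrich1* had 0.065, 0.15, 0.076 and 0.16. With a library left out, *Eif2ak1* ranged from -0.012 to 0.053, *Eif2ak2* from -0.030 to 0.072, *Ppp1r15a* from -0.028 to 0.033 and *Qrich1* from 0.076 to 0.14. The other genes kept their direction but moved by over 1.5 times at an end of the range: *Eif2ak3* from 0.018 to 0.073, *Eif2ak4* from 0.0061 to 0.060, *Eif2s1* from -0.11 to -0.050, *Ppp1r15b* from 0.040 to 0.13 and *Eif2b5* from 0.0074 to 0.042. All genes called numbered 1197 to 1865 and 8 to 13 adjusted with a library left out, and 889 and 6 with the bone marrow score. That score also gave 1 lower gene each among partners, regulators and the ATF4 program, and 0 lower interferon-stimulated genes. TPM scaling gave 1 higher regulator. The Y-linked score gave 1 lower ATF4 gene. The share of higher genes among those called was 53.4% with median-of-ratios scaling and 36.8% with the bone marrow score. With a library left out, lists ranged from 0 to 1 for higher and lower regulators, lower ATF4 genes and higher and lower interferon-stimulated genes. Higher ATF4 genes ranged from 15 to 19, and were 21 with TPM scaling and 13 with the bone marrow score. The order of levels had 6 to 7 pairs past the threshold with a library left out. Among Atf6-/- libraries alone it had 0 of 8 by the adjusted exact test and 5 unadjusted, *Eif2ak3* over *Eif2s1* not among them, where p cannot fall below 0.03125. Among Atf6+/+ libraries alone p cannot fall below 0.0625, so that test was not counted. The cause of these changes was not tested.

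No pairing by replicate number was evident. The deviations of 5 same-numbered pairs correlated by -0.305 to 0.213, 2 of them over 0.1, and 1 library correlated best with its own number. These 5 correlations cannot exclude a pairing. With the replicate block, to which Atf6-/- replicate 6 adds nothing, 1078 genes were called, 39.0% of them higher, and 4 by the adjusted p, with 0 of the 9 genes in either.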
